A study of Mus musculus with 6 samples.

Results

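The genes described here are 8 receptors of the T cell surface: the inhibitory checkpoint receptors Pdcd1 (PD-1), Ctla4, Havcr2 (TIM-3), Lag3, Tigit, Cd160 and Btla, and the costimulatory receptor Icos. They were taken by gene symbol from the FPKM tables of 6 libraries, and all 8 are listed in each library, out of 26771 genes listed in any. The libraries are messenger RNA of γδ T cells from the spleen of C57BL/6 mice that lack the T cell receptor β chain (TCRβ-/-), a genotype shared by every sample. The Initial group (3 libraries, mice A, B and C) holds cells sorted from spleen without culture; the labels do not say by which gate. The Induced group (3 libraries, mice A, B and C by the same letters) holds cells taken on day 8 of a culture with IL-1β and IL-23 and purified with a magnetic T cell kit, which the submitters describe as mostly IL-17A-positive. Sorting before culture and magnetic purification after it coincide with the groups, so the effects of culture and of handling cannot be told apart.

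Checkpoint receptors are switched on when T cells are stimulated and then restrain them. PD-1, TIGIT and BTLA carry tyrosine motifs that recruit phosphatases, CTLA-4 competes with CD28 for the ligands CD80 and CD86, LAG-3 binds MHC class II, and CD160 and BTLA share the ligand HVEM. ICOS belongs to the same family as CD28 and CTLA-4 but activates PI3 kinase, and in mouse γδ T cells that make IL-17 several of these receptors are known to be present at the surface.

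FPKM is a count of fragments divided by transcript length and by library size, so levels of different genes can be set side by side. No counts were used. From the step between low values the depth was put at roughly 19300000 to 22600000 fragments per library, and by that estimate the thinnest value here, Tigit in Induced library B, rested on about 50 fragments (a counting error of 14.5%). The constant region of the δ chain, Trdc, had 327, 320 and 335 FPKM in the Initial and 357, 349 and 299 FPKM in the Induced libraries, and the CD3 chains were present in all 6. Of 10 type 17 identity genes 7 rose and 2 fell, where 37.3% of all tested genes were called higher and 33.1% lower. The 2 falls were the cytokine gene Il17f (mean 7.7 to 2.5 FPKM) and Ccr6 (4.42 to 0.792 FPKM). Il17a itself was not called, with means of 10.4 and 15.9 FPKM, and its groups overlapped (adjusted p = 0.325). Initial libraries also held RNA of other cells. The summed FPKM of 8 B cell markers was 1450 to 1700 in Initial and 70.1 to 118 in Induced libraries, that of 10 macrophage and monocyte markers 566 to 1090 and 4.25 to 6.06, and that of 6 red cell markers 1220 to 1740 and 1.17 to 1.63.

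After culture 6 of the 8 genes were lower and 2 were higher. Tigit, Ctla4, Btla, Cd160, Pdcd1 and Lag3 fell, and Havcr2 and Icos rose. All 8 were called changed at an adjusted p under 0.05, where 70.4% of the 11265 genes tested were called. The 6 falls stand beside 33.1% of all tested genes called lower, and the 2 rises beside 37.3% called higher. For all 8 genes the libraries of one group lay wholly above those of the other, as they did for 75.4% of tested genes. The median log2 fold change of the 8 was -1.94, against 0.03 over all genes tested. Fold changes are on the scale of log2(FPKM + 1) with their standard error (SE), which understates the change of genes with low values, and means carry the SD over 3 libraries. In such bulk RNA, fewer cells that express a gene and less of its RNA per cell cannot be told apart.

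**Figure D1:**
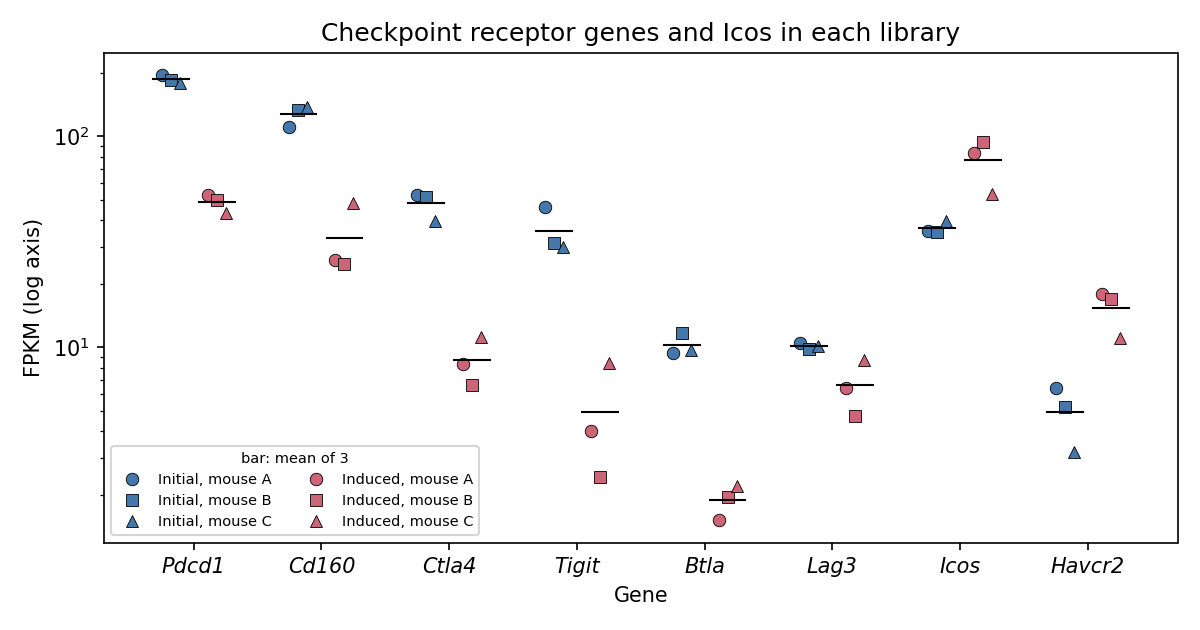
FPKM of the 8 genes (log axis) in each library, with mice A, B and C as circles, squares and triangles, Initial in blue, Induced in red, and a bar at the mean of 3. The groups are apart for every gene, with Icos and Havcr2 higher and the other 6 lower in Induced libraries, and Induced library C lies nearest to the Initial libraries for 7 of the 8.

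The 8 genes lie on 5 chromosomes (GENCODE annotation of GRCm38). Ctla4 (ENSMUSG00000026011, chromosome 1, 60887000 to 60915832) and Icos (ENSMUSG00000026009, chromosome 1, 60977927 to 61000320) are neighbours on the plus strand, 62.1 kb apart, with Cd28 113.6 kb before Ctla4. Pdcd1 (ENSMUSG00000026285, 94038305 to 94052553) is on the minus strand of the same chromosome. Tigit (ENSMUSG00000071552, 43648867 to 43664146) and Btla (ENSMUSG00000052013, 45224315 to 45257670) are both on chromosome 16. Lag3 (ENSMUSG00000030124, chromosome 6, 124904361 to 124911705) lies beside Cd4, and Havcr2 (ENSMUSG00000020399) is on chromosome 11 (46454935 to 46481255). Cd160 (ENSMUSG00000038304, chromosome 3, 96798763 to 96829351) overlaps the start of Pdzk1 on the other strand. How strand was handled is not stated in the labels, and Pdzk1 was listed at 0.194 to 0.749 FPKM in the 6 libraries.

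The RefSeq promoter table (GRCm38.p6) holds windows for 6 of the 8 genes, and none for Lag3 and Icos. The 250 bases before the start were searched on both strands for TGANTCA (AP-1), TGGAAA (NFAT), AAAGGTCA (NR4A), TGTGGT (RUNX) and AGGTGTGA (T-box). The windows of Havcr2, which rose, and of Ctla4, Tigit and Btla, which fell, are shown because they let a gene that rose be read beside genes that fell. Each is written 5′ to 3′ on the strand of its gene, with motif matches in capitals.
Havcr2, chr11:46454681-46454930, plus strand: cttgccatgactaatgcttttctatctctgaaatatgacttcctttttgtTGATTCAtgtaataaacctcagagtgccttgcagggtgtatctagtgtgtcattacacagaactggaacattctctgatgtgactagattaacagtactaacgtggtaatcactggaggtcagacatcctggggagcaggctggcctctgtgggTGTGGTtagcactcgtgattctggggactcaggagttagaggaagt
Ctla4, chr1:60908775-60909024, plus strand: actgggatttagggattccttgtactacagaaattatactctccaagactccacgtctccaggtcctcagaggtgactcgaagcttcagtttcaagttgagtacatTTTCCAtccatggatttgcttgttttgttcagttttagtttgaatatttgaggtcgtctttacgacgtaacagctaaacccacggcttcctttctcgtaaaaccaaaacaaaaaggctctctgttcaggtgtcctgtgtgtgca
Tigit, chr16:43664185-43664434, minus strand: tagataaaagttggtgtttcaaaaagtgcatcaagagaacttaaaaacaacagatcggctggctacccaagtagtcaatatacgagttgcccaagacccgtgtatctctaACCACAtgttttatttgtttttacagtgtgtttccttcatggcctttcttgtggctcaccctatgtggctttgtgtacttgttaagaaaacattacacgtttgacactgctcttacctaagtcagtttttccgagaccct
Btla, chr16:45224087-45224336, plus strand: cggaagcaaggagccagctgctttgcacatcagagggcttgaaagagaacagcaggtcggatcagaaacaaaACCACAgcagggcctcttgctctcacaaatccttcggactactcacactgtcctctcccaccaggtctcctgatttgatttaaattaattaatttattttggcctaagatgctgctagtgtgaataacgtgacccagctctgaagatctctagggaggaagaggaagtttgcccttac
The RUNX letters occur in the windows of Havcr2, Tigit and Btla and in both windows of Cd160, so they are found before genes that moved in opposite directions. In all, 5 of 7 windows of these genes hold them, and 14.0% of 32851 windows of that length in the table do. The AP-1 letters were found only before Havcr2 among these windows (6.75% of all windows) and the NFAT letters only before Ctla4 (18.6%). The NR4A and T-box letters were in none of the 7 windows and in 1.34% and 1.12% of all windows. The window of Ctla4 lies inside the GENCODE gene, which has a transcript that starts further upstream, and the last 22 bases of the window of Btla are annotated as 5′ untranslated exon in GENCODE. Window 1 of Cd160 lies wholly inside Pdzk1, with 137 bases in an exon of that gene. Window 2 of Cd160 lies wholly inside Cd160 itself. For Tigit, on the minus strand, the window stops at 43664185, upstream of the GENCODE start of the gene at 43664146.

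Pdcd1 had the highest level of the 8 genes before culture. It encodes PD-1, the receptor for PD-L1 and PD-L2. Its FPKM was 195, 185 and 180 in Initial libraries A, B and C and 53.1, 50.1 and 43.6 in Induced libraries A, B and C. Each group was narrow, and the highest Induced value was far below the lowest Initial one. The mean went from 186 ± 7.91 to 48.9 ± 4.86 FPKM, 3.81 times lower (log2 fold change -1.91, SE 0.08, adjusted p = 6.7e-07). It was the one gene of the 8 for which Induced library C stood furthest from the Initial libraries. Despite its fall, Pdcd1 was still higher than 82.5% of tested genes in Induced cells, against 96.7% in Initial cells.

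The 2 ligands of PD-1 also fell. Cd274 (PD-L1) had 30.7, 32.7 and 36.2 FPKM in the Initial and 18.3, 20.0 and 14.6 FPKM in the Induced libraries (log2 fold change -0.88, SE 0.12, adjusted p = 0.00028). Pdcd1lg2 (PD-L2), a low gene throughout, went from 3.75 ± 0.896 to 1.41 ± 0.249 FPKM (log2 fold change -0.96, SE 0.16, adjusted p = 0.00087). The phosphatase gene Ptpn6 (SHP-1) fell from 234 ± 9.58 to 127.5 ± 4.09 FPKM. The related Ptpn11 (SHP-2), through which PD-1 is known to signal, had 4.68 ± 0.419 and 3.93 ± 0.181 FPKM and did not pass (adjusted p = 0.101).

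The CD28 family on chromosome 1 split. Ctla4, the competitor of CD28, had 52.9, 51.8 and 40.0 FPKM before and 8.34, 6.60 and 11.2 FPKM after culture. Initial C was the lowest of its group and Induced C the highest of its own, with no overlap. The mean was 5.53 times lower (log2 fold change -2.36, SE 0.18, adjusted p = 1.7e-05). Cd28 itself had 100, 116 and 97.1 FPKM before and 8.89, 7.19 and 16.7 FPKM after (log2 fold change -3.22, SE 0.28, adjusted p = 6.3e-05). Icos, the third gene of the cluster, moved the other way.

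Icos had 35.8, 35.3 and 39.8 FPKM in the Initial libraries and 83.7, 94.0 and 53.4 FPKM in the Induced libraries. The Initial values lay close together, and Induced library C was well below A and B but above every Initial library. The mean went from 37.0 ± 2.50 to 77.0 ± 21.1 FPKM, 2.08 times higher (log2 fold change 1.002, SE 0.195, 95% interval 0.54 to 1.46, adjusted p = 0.0027). Without Induced library C the log2 fold change was 1.24. With the mouse as a block the adjusted p was 0.013. Genes of the type 17 identity list were ordered likewise among the Induced libraries, with a summed FPKM of 569, 607 and 376 in A, B and C, and their part in the level of Icos was not tested.

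Ratios within a library do not depend on how libraries are scaled to each other. Icos over Cd28 was 0.358, 0.304 and 0.410 in Initial A, B and C and 9.42, 13.1 and 3.19 in Induced A, B and C. Icos over Ctla4 went from 0.785 ± 0.183 to 9.68 ± 4.75, and Icos over Pdcd1 from 0.199 ± 0.0203 to 1.56 ± 0.325. The order of the genes thus turned: Icos was below Pdcd1 in each Initial library and above it in each Induced library. Cd28 over Ctla4 moved less, from 2.19 ± 0.272 to 1.22 ± 0.240, since both genes fell. Of 16 such ratios, the groups did not overlap in 15, and each of these 15 had an exact two-sided permutation p of 0.1 (Benjamini-Hochberg adjusted p = 0.107), the smallest that 3 libraries against 3 can give.

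**Figure D2:**
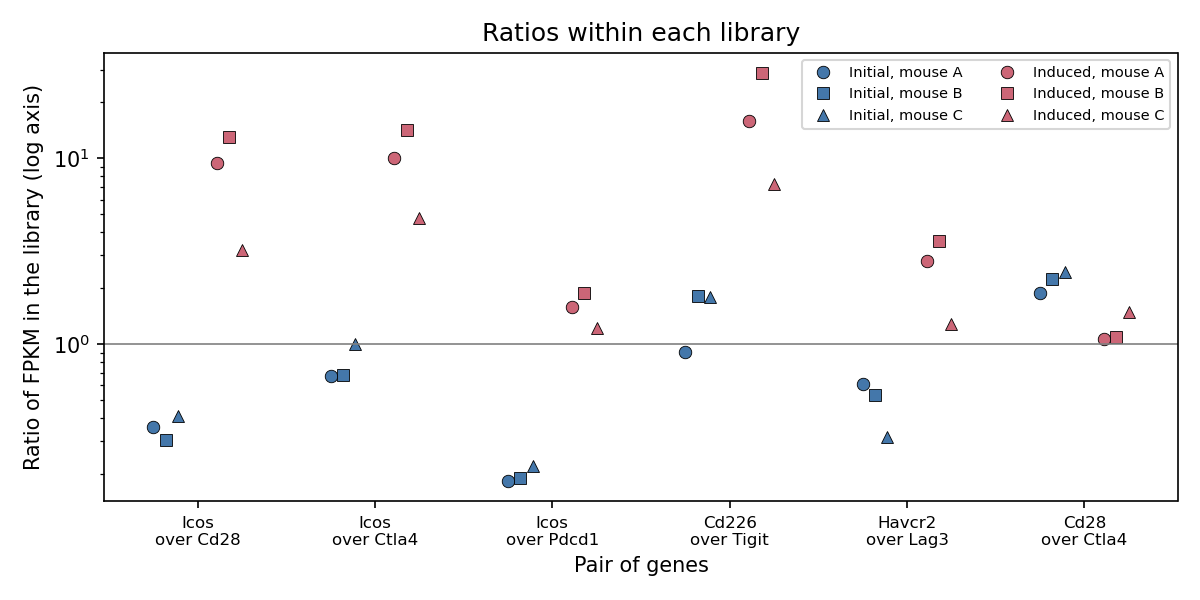
Ratio of the FPKM of 2 genes within each library (log axis), Initial in blue and Induced in red, with a line at 1. Icos over Cd28, Icos over Ctla4, Icos over Pdcd1, Cd226 over Tigit and Havcr2 over Lag3 are higher in every Induced library, with library C the lowest of the 3, and Cd28 over Ctla4 is lower in every Induced library.

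The ligands of this family were mostly lower in Induced cells. Cd86 had 29.8, 29.5 and 18.8 FPKM before and 2.61, 2.64 and 1.62 FPKM after culture (log2 fold change -3.03, SE 0.20, adjusted p = 8.3e-06). Icosl, the ligand of ICOS, fell from 5.26 ± 1.15 to 0.540 ± 0.164 FPKM (log2 fold change -2.01, SE 0.16, adjusted p = 1.3e-05). It reached FPKM 1 only in Initial libraries and so entered the test through them. In the fit without a filter its adjusted p was 9.15e-05. Cd80 was near the limit of the test, with 0.986 ± 0.417 and 1.59 ± 0.490 FPKM (log2 fold change 0.39, adjusted p = 0.0993), and was called higher without Initial library A (adjusted p = 0.0323), with quantile normalization and with scaling on Trdc and the CD3 genes. Cd86 and Icosl are genes of B cells and myeloid cells, whose markers fell as given above, and the part of those cells in the 2 falls was not tested.

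Tigit had the largest fall of the 8. TIGIT competes with the activating receptor CD226 for the ligand CD155, the product of Pvr. Its FPKM was 46.2, 31.3 and 30.0 in the Initial and 4.01, 2.43 and 8.41 in the Induced libraries. Initial A was high within its group and Induced C was high within its own, but the groups were far apart. The mean was 7.23 times lower (log2 fold change -2.73, SE 0.38, adjusted p = 0.00088), and without Induced library C the log2 fold change was -3.12. Only 3.0% of tested genes had a lower log2 fold change. Cd226 had 41.8, 56.7 and 54.0 FPKM before and 63.8, 69.8 and 61.2 FPKM after culture, higher in all 3 mice by 0.36 on the log2 scale (SE 0.12, adjusted p = 0.0255). That call ended without Induced library A (adjusted p = 0.0595) or B (0.0838), and without Initial library A the log2 fold change was 0.23. Cd226 over Tigit was 0.906, 1.81 and 1.80 in Initial and 15.9, 28.7 and 7.28 in Induced libraries. The other receptor of that family, Cd96, fell from 110 ± 1.91 to 78.4 ± 8.14 FPKM, and Pvr had 5.22 ± 1.16 and 4.46 ± 0.303 FPKM and was not called (adjusted p = 0.304).

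Both receptors of the HVEM axis fell. Cd160, which is anchored to the membrane by a lipid and is found on NK cells and innate-like T cells, had 111, 134 and 138 FPKM before and 26.1, 24.9 and 48.3 FPKM after culture. Induced C stood well above the other Induced libraries and still under every Initial library. The mean went from 128 ± 14.4 to 33.1 ± 13.2 FPKM (log2 fold change -1.98, SE 0.25, adjusted p = 0.00043), with a log2 fold change of -2.28 without Induced library C. The summed FPKM of 6 NK cell markers was 89.7 to 102 in Initial libraries and 17.3, 13.2 and 46.8 in Induced A, B and C. All 4 tested NK cell markers fell, beside 33.1% of all tested genes called lower. In Induced A, B and C, Klrb1c had 13.4, 11.9 and 30.6 FPKM and Klre1 3.69, 1.28 and 16.1 FPKM, highest in C as Cd160 was. Ncr1 had 0.220, 0.0302 and 0.109 FPKM there, and Klra4, Klra8 and Klra9, at most 2.86 FPKM in any Initial library, were listed at 0. The part of NK cells in the level of Cd160 was not tested.

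Btla was the lowest of the 8 after culture. It had 9.37, 11.8 and 9.76 FPKM in the Initial and 1.51, 1.94 and 2.196 FPKM in the Induced libraries, with narrow groups. The mean was 5.46 times lower (log2 fold change -1.97, SE 0.13, adjusted p = 5.2e-06). B cells also carry BTLA. All 7 tested B cell markers fell, where 33.1% of all tested genes were called lower. The part of B cells in the fall of Btla was not tested. Within the Induced libraries Btla was highest in C, where the B cell markers had their lowest sum (118, 86.4 and 70.1 FPKM in A, B and C). Tnfrsf14 (HVEM), the shared ligand, stayed low, with 0.950 ± 0.0671 and 1.16 ± 0.373 FPKM (log2 fold change 0.13, adjusted p = 0.452).

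Lag3 had the smallest change. LAG-3 is a relative of CD4 that binds MHC class II. Its FPKM was 10.5, 9.83 and 10.2 in the Initial and 6.43, 4.72 and 8.72 in the Induced libraries. The Initial values lay close together, and Induced C came near to them without overlap. The mean was 1.53 times lower (log2 fold change -0.58, SE 0.18, 95% interval -0.995 to -0.171, adjusted p = 0.0188). Leaving out Initial A, Initial C or Induced A ended the call (adjusted p = 0.0582, 0.0508 and 0.0505), and so did scaling on Trdc and the CD3 genes (log2 fold change -0.38, adjusted p = 0.0845). Lag3 over Cd3e was 0.0319 ± 0.000677 and 0.0301 ± 0.00926 and overlapped between groups (exact two-sided permutation p = 0.7, adjusted p = 0.7), while Lag3 over Trdc went from 0.0310 ± 0.000919 to 0.0202 ± 0.00808 without overlap. Cd3e itself fell (log2 fold change -0.53, adjusted p = 0.00012) and Trdc did not pass (log2 fold change 0.03, adjusted p = 0.762).

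Havcr2 encodes TIM-3, a receptor of activated T cells, macrophages and dendritic cells, and had the lowest level of the 8 before culture. It had 6.39, 5.22 and 3.21 FPKM in the Initial and 17.9, 16.9 and 11.1 FPKM in the Induced libraries. Every Induced library exceeded every Initial one, and library C was the lowest in both groups. The mean was 3.10 times higher (log2 fold change 1.47, SE 0.24, adjusted p = 0.0011, and 1.7e-05 with the mouse as a block). In the Initial libraries the summed macrophage and monocyte markers were ordered as Havcr2 was, with 1090, 909 and 566 FPKM in A, B and C. In the Induced libraries, where Havcr2 was higher, these markers summed to 4.25 to 6.06 FPKM, from Marco, listed at 0 in A and C, to Lyz2 at 1.45 to 2.13 FPKM and Cd68 at 0.746 to 3.86 FPKM. All 10 fell. Dendritic cell markers (7 genes) summed to 16.7 to 21.9 FPKM before and 3.31 to 8.44 FPKM after culture. Of 6 tested, 4 fell, Itgax did not pass (1.68, 0.382 and 5.85 FPKM in Induced A, B and C) and Xcr1 rose (0.930, 0.675 and 0.682 to 2.30, 2.60 and 2.14 FPKM, adjusted p = 0.00017). Both marker lists stand beside 33.1% of all tested genes called lower and 37.3% called higher. The part of myeloid and dendritic cells in the levels of Havcr2 was not tested. Havcr2 over Lag3 went from 0.486 ± 0.152 to 2.55 ± 1.18.

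Ligands of TIM-3 differed in direction. The galectin gene Lgals9 fell from 127 ± 3.61 to 94.3 ± 9.25 FPKM (log2 fold change -0.43, SE 0.08, adjusted p = 0.0017), a call lost with scaling on Trdc and the CD3 genes (adjusted p = 0.0608). Ceacam1 fell from 4.71 ± 1.57 to 0.180 ± 0.119 FPKM, and Hmgb1, an abundant chromatin protein gene, rose from 388 ± 12.9 to 589 ± 34.0 FPKM. Lgals3, a galectin that binds LAG-3, rose from 33.0 ± 4.52 FPKM to 103, 68.1 and 237 FPKM in Induced A, B and C (log2 fold change 1.82, SE 0.44, adjusted p = 0.0098).

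**Figure D3:**
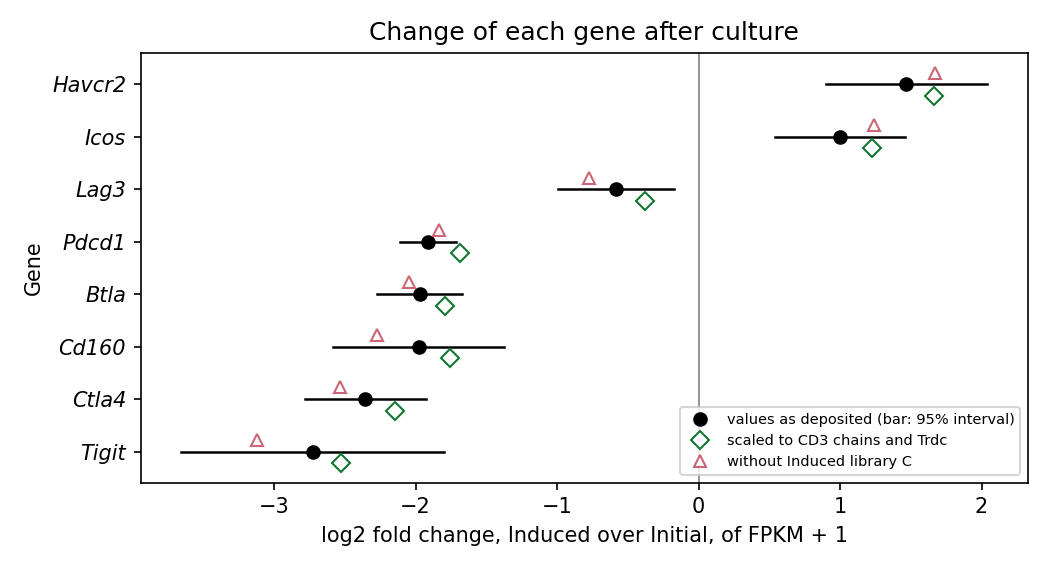
Log2 fold change of FPKM + 1, Induced over Initial, for each gene. Black dots with 95% intervals are the values as deposited, green diamonds are scaled on Trdc and the CD3 genes, and red triangles leave out Induced library C; the direction is the same in all 3, and Lag3 is nearest to 0.

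The summed FPKM of the 8 genes was 468, 464 and 451 in the Initial and 201, 202 and 187 in the Induced libraries. Without Icos, the 7 inhibitory receptors summed to 424 ± 11.1 and 119.5 ± 13.1 FPKM. Pdcd1 made up 40.5 ± 1.10% of the sum of 8 before culture and 24.9 ± 1.55% after it. The share of Icos went from 8.03 ± 0.70% to 38.9 ± 9.31%, and that of Havcr2 from 1.07 ± 0.33% to 7.75 ± 1.58%. The share of Cd160 was 13.0%, 12.4% and 25.8% in Induced A, B and C, so library C alone lay within reach of the Initial share (27.8 ± 3.56%). The share of Lag3 was 2.21 ± 0.07% before culture and 3.40 ± 1.18% after it. By level, the Initial order was Pdcd1, Cd160, Ctla4, Icos, Tigit, Btla, Lag3 and Havcr2, in which Icos with Tigit and Btla with Lag3 overlapped. The Induced order was Icos, Pdcd1, Cd160, Havcr2, Ctla4, Lag3, Tigit and Btla. There Pdcd1 with Cd160, and each neighbouring pair from Havcr2 to Tigit, overlapped.

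**Figure D4:**
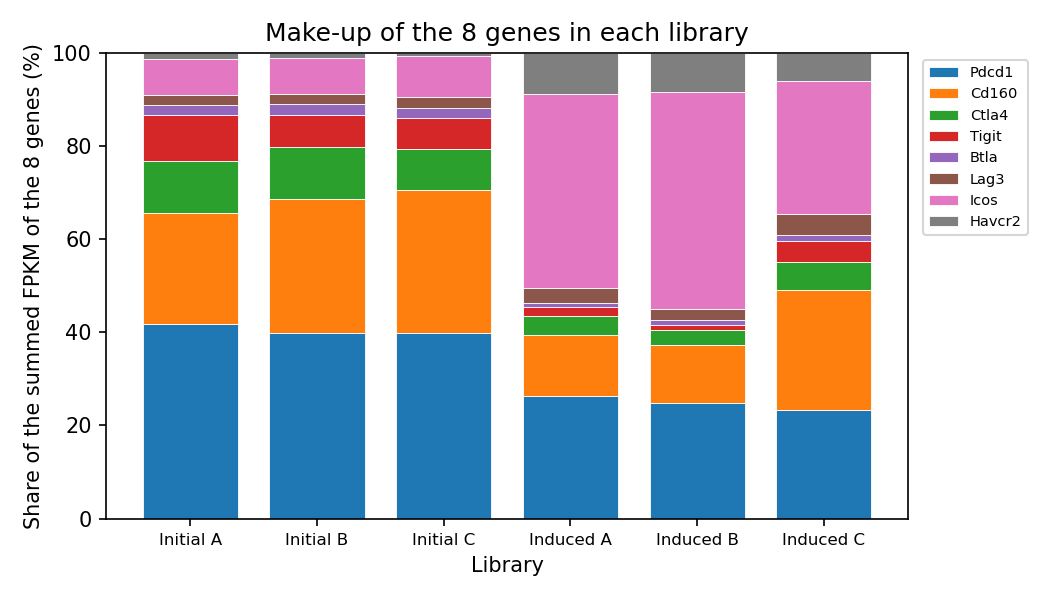
Share of each gene (%) in the summed FPKM of the 8 genes, 1 bar per library. Pdcd1 and Cd160 fill most of the Initial bars, and Icos is the largest part of each Induced bar, at 41.6%, 46.6% and 28.6% in A, B and C.

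Among the 3 Induced libraries, C was the nearest to the Initial mean for 7 of the 8 genes on the log2(FPKM + 1) scale, and A for Pdcd1. Over all called genes C was the nearest for 48.1%. Library C had the highest Ctla4, Lag3, Tigit, Cd160 and Btla and the lowest Icos, Havcr2 and Pdcd1 of its group. Other genes also set it apart: Cd8b1, a chain of the CD8 coreceptor, had 18.4, 8.40 and 42.1 FPKM in Induced A, B and C, and the NK receptor gene Klrb1c was highest in C as given above. The summed FPKM of 6 conventional and regulatory T cell markers, Cd8b1 among them, was 208, 193 and 238 in Initial and 81.8, 68.5 and 135 in Induced A, B and C. Of 5 tested, Cd4, Trac and Cd40lg fell, as Ctla4, Tigit, Pdcd1 and Lag3 did, which such T cells also carry. Calls of lower made up 33.1% of all tested genes. Cd8a and Cd8b1 were not called (adjusted p = 0.29 and 0.0663). Foxp3, too low to be tested, went the other way. It had 0.111, 0.119 and 0.0661 FPKM in Initial and 0.464, 0.252 and 0.449 FPKM in Induced A, B and C. Every library came from mice that lack the T cell receptor β chain, as given in the opening. The part of conventional and regulatory T cells in the falls of Ctla4, Tigit, Pdcd1 and Lag3 and in the levels of library C was not tested. Without Induced library C, all 8 genes kept their direction and their call.

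Of 15 other inhibitory receptor genes tested, 12 fell, 1 rose and 2 did not pass, with a median log2 fold change of -1.68. Over all genes tested, 33.1% were called lower and 37.3% higher. Cd22 (18.6 ± 2.56 to 1.31 ± 0.517 FPKM), known from B cells, and Cd300a (7.57 ± 2.53 to 0.0136 ± 0.0157 FPKM), known from myeloid cells, had the largest falls, and the markers of both cell types fell with them. Other genes of the list fell too, among them Cd5 (50.5 ± 2.80 to 15.2 ± 1.91 FPKM), Cd6 (112.5 ± 7.87 to 20.2 ± 8.62 FPKM) and Cd244 (13.2 ± 1.47 to 1.61 ± 1.42 FPKM). Cd200r1 was the exception, at 7.14 ± 1.32 and 9.73 ± 1.49 FPKM (log2 fold change 0.40, adjusted p = 0.0395). Its groups overlapped, and leaving out Initial A, Initial C, Induced A or Induced B ended the call (adjusted p = 0.129, 0.107, 0.123 and 0.122).

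Of 12 stimulatory counterparts tested, 7 fell, 2 rose and 3 did not pass, with a median log2 fold change of -1.05. These counts stand beside 33.1% called lower and 37.3% called higher over all tested genes. Slamf6 (63.8 ± 8.05 to 5.37 ± 2.53 FPKM), a receptor of the SLAM family, fell most, next to Cd28 and the TNF receptor gene Cd27 (185 ± 5.85 to 22.8 ± 13.2 FPKM). Slamf1 of the same family rose from 5.10 ± 0.354 to 15.2 ± 2.22 FPKM, with Cd226 as the other rise. Tnfrsf9 (4-1BB) had 44.6 ± 2.97 and 44.2 ± 1.56 FPKM (log2 fold change -0.01, adjusted p = 0.907). Of 11 tested ligand genes of the 8 receptors 6 fell, 2 rose and 3 did not pass (median -0.43), where 70.4% of all tested genes were called.

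Of 20 signalling partners tested, 13 fell, 2 rose and 5 did not pass (median log2 fold change -0.48). Calls in either direction made up 70.4% of all tested genes, with 33.1% lower and 37.3% higher. Trat1, an adaptor of the antigen receptor that also binds CTLA-4, fell from 34.6 ± 1.25 to 6.62 ± 1.60 FPKM. Pik3r1, the regulatory subunit of the PI3 kinase that ICOS and CD28 recruit, fell from 46.3 ± 1.84 to 12.4 ± 1.66 FPKM, while its catalytic partner Pik3cd had 137 ± 5.73 and 153 ± 11.3 FPKM (adjusted p = 0.0972). The kinase gene Tbk1 (24.1 ± 1.21 to 30.3 ± 0.905 FPKM) and Ap2m1 (210 ± 9.17 to 251 ± 10.9 FPKM), whose product takes CTLA-4 into the cell, rose.

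Regulators tied to activation and exhaustion were lower in 13 of 20, higher in 4 and not called in 3 (median log2 fold change -1.34). The shares over all tested genes were 33.1% lower and 37.3% higher. The nuclear receptor genes Nr4a1 and Nr4a2, early response genes of the antigen receptor, fell from 868 ± 206 to 3.65 ± 0.625 and from 153 ± 3.81 to 1.23 ± 0.275 FPKM. Tox, a factor of exhausted cells that sustains checkpoint receptors, fell from 57.0 ± 5.37 to 4.07 ± 1.89 FPKM. Maf (10.2 ± 0.770 to 66.6 ± 17.1 FPKM) and Id2 (477 ± 13.8 to 1526 ± 133 FPKM) had the largest rises, and Prdm1, the gene of Blimp-1, rose from 3.11 ± 0.922 to 6.45 ± 1.59 FPKM. Batf had 37.0 ± 3.66 and 39.6 ± 4.39 FPKM and was not called (adjusted p = 0.446).

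**Figure D5:**
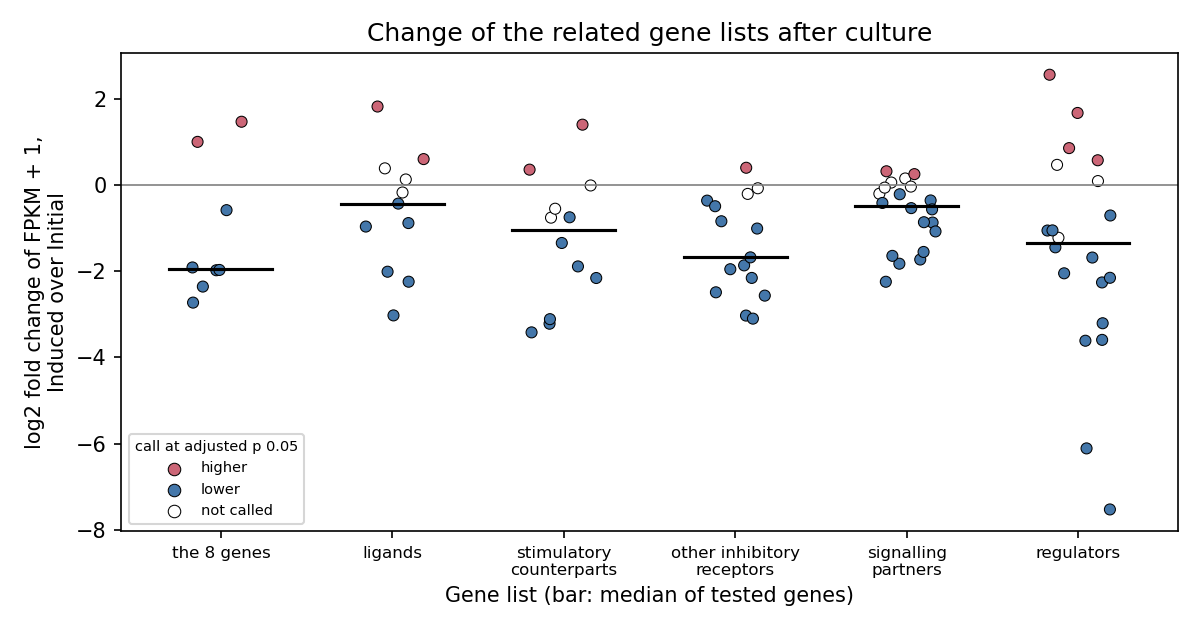
Log2 fold change of FPKM + 1, Induced over Initial, of every tested gene of the 8 receptors and of 5 related lists, with a bar at the median. Filled points passed an adjusted p of 0.05 (red higher, blue lower); all 6 medians are below 0, from -1.94 in the 8 genes to -0.43 in the ligands, against 0.03 over all genes tested.

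The split between rises and falls over all genes depended on the scaling: of the genes called, 52.9% rose in the unscaled FPKM and 66.8% with scaling on Trdc and the CD3 genes, which shifted the median log2 fold change by 0.21. With that scaling Havcr2 and Icos had log2 fold changes of 1.67 and 1.22, and Pdcd1, Ctla4, Tigit, Cd160 and Btla of -1.69, -2.14, -2.53, -1.75 and -1.79. These 7 kept their call.

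The genes closest in pattern were found by the mean absolute difference of log2(FPKM + 1) over the 6 libraries, each gene centred on its own mean. Predicted genes, such as those with Gm and Rik names, were passed over. Pag1, an adaptor that holds the kinase Csk at the membrane, and Zfp869 were the closest to Pdcd1 (0.04 log2 units each). Acp5 was the closest to Ctla4 (0.08), Sntb2 to Lag3 (0.052, with Whsc1l1 at 0.055), Rcn3 to Tigit (0.13) and Ifi208 to Cd160 (0.07). Icosl was the closest to Btla (0.04), with 4.46, 6.58 and 4.73 FPKM before and 0.360, 0.582 and 0.679 FPKM after culture. For Icos it was Tmem64 (0.06), with 47.8, 48.2 and 48.7 FPKM before and 108, 111 and 69.0 FPKM after. The tubulin gene Tubb6 was the closest to Havcr2 (0.10). With 6 libraries in 2 groups, such a likeness is set mostly by the difference between the groups.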

How the data were processed

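Messenger RNA was sequenced from 3 Initial and 3 Induced libraries. The deposited FPKM values were made by the authors with Cuffdiff, per the labels' protocols; the submitters' processing notes name CASAVA, HISAT2 2.0.5, Cuffdiff 1.3.0 and 2.2.1, and mm9, although positions in the tables match GRCm38. No listed value is 0, so a gene missing from a table was taken as 0, which can also be a failed estimate. Groups and mouse letters come from the sample titles.

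From these values, log2(FPKM + 1) was fitted with limma 3.58.1 (R 4.3.3, with trend, robust, two-sided) for genes that reached FPKM 1 in 3 or more libraries, with Benjamini-Hochberg adjustment over all 11265. A gene under FPKM 1 in every library of 1 group was tested only through the other group, which fixed its direction. Icosl, Ceacam1, Cd300a, Cd4, Ccr6 and several marker genes are of this kind, and the list counts include such genes. The fit was also run on simulated data in which few genes changed. Since 70.4% of genes were called here, that run does not test the adjustment at such a share. The members and lists were chosen with earlier results of these data known. Named genes are the 8 members, fixed partners and the 2 largest called rises and falls of each list; Ptpn6, Ptpn11, Cd96, Cd5, Cd6, Cd244, Cd27, Tnfrsf9, Pik3cd, Tox, Prdm1, Batf and the single marker genes were added after their values were seen. Maf and Cd40lg are in 2 lists each. Mice pair the libraries by the titles' letters; deviations of same-letter libraries correlated at 0.0393, 0.0307 and 0.131 (A, B and C), against -0.132 to 0.0988 for the others. Depth was estimated from single-transcript genes, where 45.8 to 50.3% of low values lay within 0.15 of a whole fragment (30% by chance). Alternatives were pseudocounts, filters, scalings, a mouse block, the moderated test without robust fitting or trend, and each library left out. The software was scipy 1.17.1, pandas 2.3.3 and numpy 2.4.6 under Python 3.11.15, with figures by matplotlib 3.10.9. Protein sequences were not analysed here, and some single marker genes are not reported here.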

Additional observations from a re-analysis of the deposited data

How the results depend on the processing

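Each of the 8 genes was refitted under 16 alternatives. Pdcd1, Ctla4, Havcr2, Tigit, Cd160, Btla and Icos kept direction and call in all of them, with log2 fold changes of -1.98 to -1.69, -2.54 to -1.96, 1.03 to 1.67, -3.12 to -2.06, -2.28 to -1.76, -2.40 to -1.15 and 0.84 to 1.24. Lag3 kept its direction and lost its call in 4: scaled on Trdc and the CD3 genes (-0.382) and without Initial library A or C or Induced library A, with -0.776 to -0.393 over the libraries left out. The count of the 8 called changed was thus 7 in 4 settings and 8 in 13. With the mouse as a replicate block all 8 were called, with a log2 fold change of -0.58 for Lag3, and the block changed no call of these genes. Among the lists it gave 13 other inhibitory receptors lower (12 without it) and 5 regulators higher (4 without it), and the other list counts were the same.

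Among the lists, the filter at FPKM 5 left 3 ligand genes lower, since fewer were tested. Stimulatory counterparts called higher were 1 without a filter and after quantile normalization, and 1 to 2 with libraries left out. Other inhibitory receptors called higher were 0 without a filter, with a common sum or after quantile normalization, and 0 to 1 with libraries left out. Signalling partners called higher were 5 with scaling on Trdc and the CD3 genes. There Pvr turned to a log2 fold change of 0.016 (adjusted p = 0.922). The cause of these changes was not tested, apart from the filter. Over all genes, 6710 to 7533 were called with libraries left out, against 7931. Of 397 other values of named genes that are not among the 8, 381 kept their direction and side of the threshold. Depth limits Tigit and Btla in Induced libraries most.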

Other observations

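Neighbours of the 8 genes on their chromosomes, looked up after the values were seen, did not all move with them. Cd200, which encodes the ligand of the inhibitory receptor CD200R and lies 124.5 kb beyond Btla, fell from 9.23 ± 1.54 to 0.766 ± 0.255 FPKM (log2 fold change -2.53, SE 0.16, adjusted p = 3.7e-06). Zbtb20, a transcription factor gene 6.3 kb from Tigit, had 18.5, 29.3 and 18.5 FPKM before and 7.14, 5.20 and 8.21 FPKM after culture (log2 fold change -1.55, adjusted p = 0.00037). Cd4, 16.1 kb from Lag3, had 2.03, 3.49 and 3.51 FPKM before and 0.185, 0.178 and 0.0858 FPKM after (log2 fold change -1.78, adjusted p = 3.9e-05). On the other side of Lag3, Ptms had 16.8, 13.8 and 14.3 FPKM before and 12.5, 13.4 and 15.7 FPKM after, and did not pass (adjusted p = 0.4). Beside Cd160, Rnf115 differed by 0.03 on the log2 scale (adjusted p = 0.69), and beside Havcr2, Med7 by -0.33 (adjusted p = 0.14).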
